A study of Mus musculus with 6 samples.

Results

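The ATP-binding cassette (ABC) transporter family was followed in the stem cell fraction sorted from squamous cell carcinomas of mouse skin. Members were the array features whose platform annotation holds 1 gene symbol of the form Abca to Abcg with a number, which gave 48 genes of the 30142 genes measured, each with 1 feature. There were 16 members of subfamily A, 9 of B, 10 of C, 3 of D, 1 of E, 3 of F and 6 of G. Tap1, Tap2 and Cftr encode ABC proteins under other symbols and are described beside the members.

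Cells came from carcinomas of wild-type mice (WT, 3 samples) and of mice with the genotype Sfrp1-/- (Sfrp1_KO, 3 samples), which lack a secreted antagonist of Wnt signalling. All mice of both genotypes had received the mutagen DMBA on 3 days and then the tumour promoter TPA 2 times a week for up to 30 to 40 weeks. The sort kept Epcam+, α6 integrin+ and CD34+ cells without lineage markers, and RNA of each sample was hybridised to 1 Affymetrix MTA 1.0 array. The labels used here name no strain, no age at sorting and no animal behind a sample; the p-values below therefore rest on the spread among these 6 samples, part of which may be technical.

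ABC proteins bind and hydrolyse ATP in a pair of nucleotide-binding domains, and most of them use that energy to move a substrate across a membrane. Subfamily A carries mainly lipids, B and C hold drug, bile and conjugate exporters beside mitochondrial carriers, D serves peroxisomes and lysosomes, and G exports sterols and drugs. E and F have no membrane part and act on ribosomes. In epidermis, Abca12 loads lipid into the lamellar granules that build the skin barrier, and in stem cell work Abcg2 and the Abcb1 genes are known for pumping out dyes and drugs.

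Values are deposited log2 signals. Signals ran up to 19.93, past what 16 bits can hold, which points to a rescaling whose form is unknown; differences are therefore in log2 units, without folds. As background level of each array the highest among 23 antigenomic probe sets was taken, and it lay between 4.82 and 5.10, and array medians lay between 4.32 and 4.46. Sfrp1 itself was at 5.71, 5.48 and 6.07 in WT and at 5.09, 5.11 and 5.15 in Sfrp1_KO, with no overlap (difference -0.64, SE 0.15, limma adjusted p = 0.0969); which exons the allele removes is not stated in the labels. Of 8 basal keratinocyte markers 7 were lower in Sfrp1_KO, and Dst was higher without overlap of the arrays (0.64, SE 0.18, limma adjusted p = 0.139). Krt5 and Krt14 had the largest differences (-10.74 and -7.45), and the median of the 8 was -2.34. Their mean was 8.92 to 9.86 on WT arrays and 5.73 to 5.86 on Sfrp1_KO arrays. The test was passed by 4 of the 8, all downward, against 1.45% of all genes called lower. Of the positive sort markers Epcam and Itga6 passed downward, calls that ended when any 1 Sfrp1_KO array was dropped, and without WT replicate 1 for Epcam or 2 for Itga6 (limma adjusted p up to 0.184 and 0.111). Epcam was at 7.43, 8.69 and 6.65 in WT and at 4.99, 4.89 and 5.22 in Sfrp1_KO, although the sort kept Epcam+ cells. Of these Sfrp1_KO arrays replicate 3 alone was above background, while Itga6 and Cd34 were above it on all 6 arrays. Whether the sorted fractions of the genotypes hold the same cells was not tested. Cd34 did not pass, but every Sfrp1_KO array lay above every WT array (1.57, SE 0.34, limma adjusted p = 0.0714). Over all genes limma called 552 higher and 437 lower in Sfrp1_KO, and between 100 and 407 lower and 191 and 487 higher when 1 array was left out. In bulk RNA of sorted cells, fewer cells of a type and less RNA per cell cannot be told apart.

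Most of the family lay at or under the background level. Of the 48 members, 31 (64.6%) were at or under the background level on all 6 arrays, against 54.5% of all genes. There were 13 members above background on all WT arrays, 11 on all Sfrp1_KO arrays and 10 on all 6. The 10 were Abca1, Abca2 and Abca7, Abcb1b, Abcc1, Abcd4, Abce1, and Abcf1 to Abcf3. Abca12 and Abcc3 stood above background on every WT array and on no Sfrp1_KO array, and Abcb8 on every WT array and 1 Sfrp1_KO array. Abcb1a stood above it on every Sfrp1_KO array and 2 WT arrays. Abcb10, Abcc5 and Abcg2 passed it on some arrays. These counts rest on the strict choice of the highest background probe set. Against the second highest, 14 members were above background in WT and 15 in Sfrp1_KO, so that the order of the genotypes turned, and all 48 members lay above the median of the 23 on every array.

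**Figure D1:**
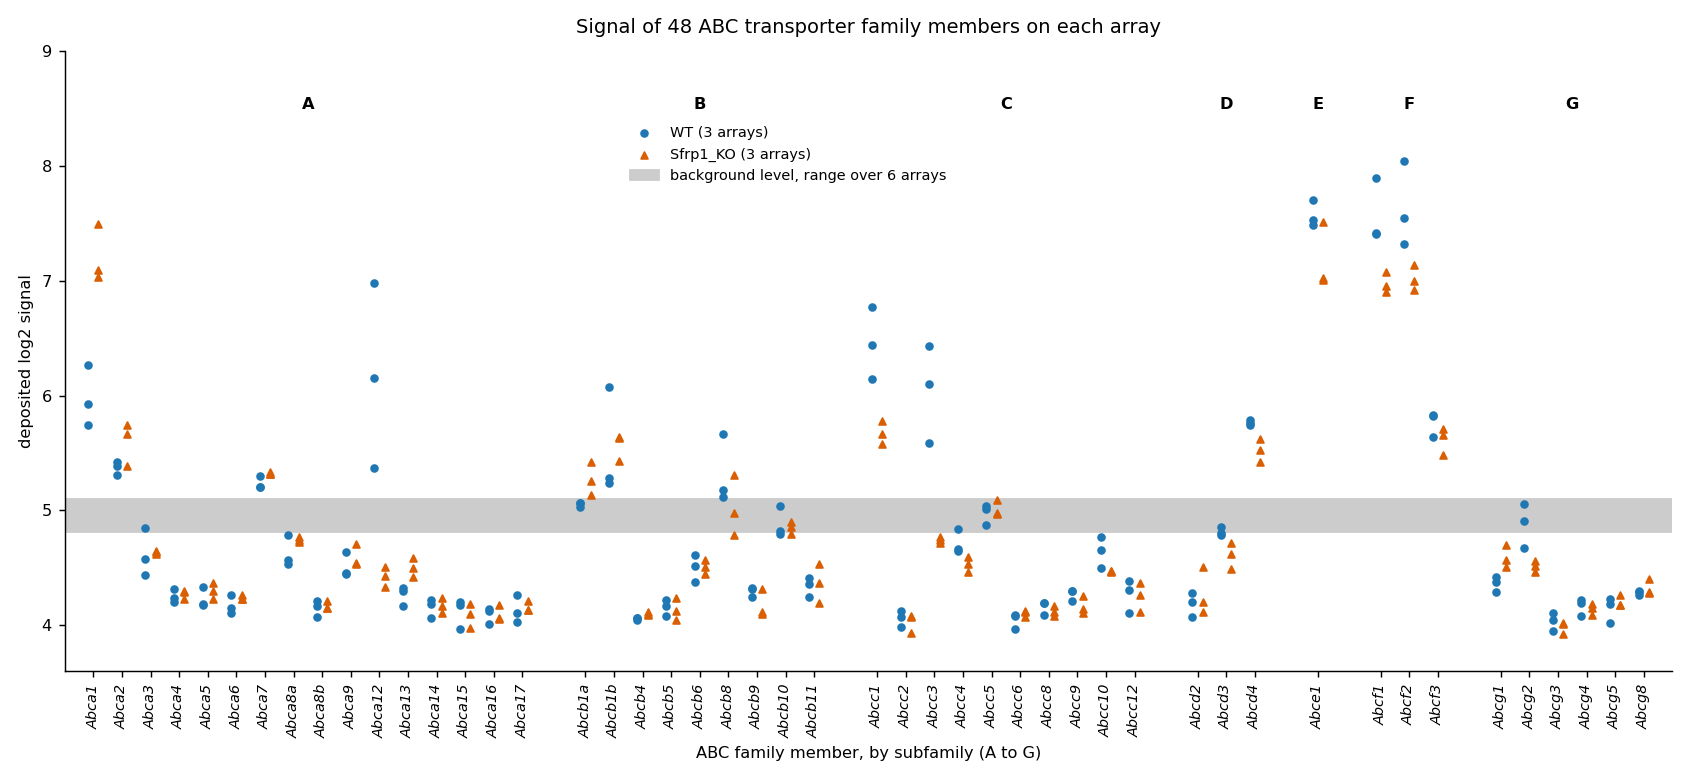
Deposited log2 signal (vertical axis) of the 48 members, grouped by subfamily along the horizontal axis; circles are the 3 WT arrays, triangles the 3 Sfrp1_KO arrays, and the grey band spans the background levels of the 6 arrays (4.82 to 5.10). Points of 31 members lie at or under background on every array; levels of different genes are measured by different probes and are not to be ranked against each other.

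Between the genotypes, 1 member rose in Sfrp1_KO, the cholesterol exporter Abca1, and 1 fell, the conjugate exporter Abcc3. Of all genes 1.83% were called higher and 1.45% lower (limma, adjusted p under 0.05 over 30142 genes), and 3.28% in either direction, close to the 2 of 48 members (4.17%). Differences of 45 members were under 1 log2 unit in size, and the family median was 0.01, against -0.01 over all genes. In 16 members the arrays of the genotypes did not overlap, 6 higher and 10 lower in Sfrp1_KO (33.3%, against 19.9% of all genes; 9.1% of all genes higher and 10.8% lower). Among the 16, Abca13, Abcb4 and Abcg1 (higher) and Abcc4, Abcc10 and Abcd3 (lower) were under background on every array. Abcg2 (lower) exceeded it on 1 array. At an unadjusted limma p under 0.05 there were 11 members (22.9%, against 14.4% of all genes).

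**Figure D2:**
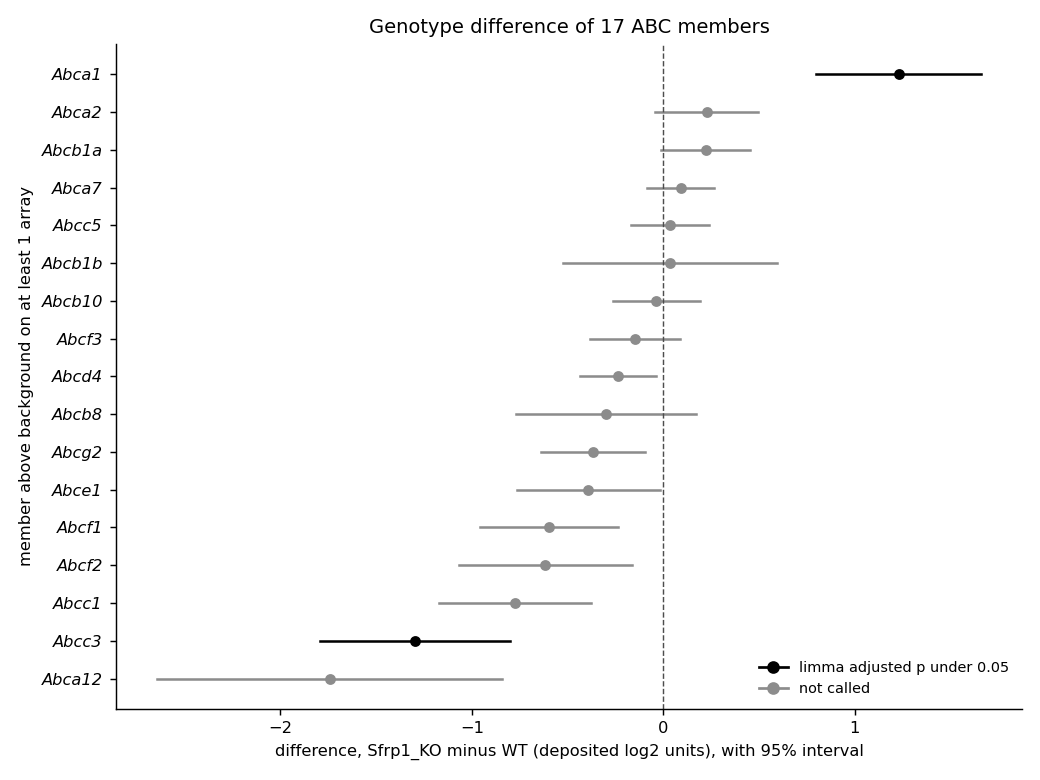
Difference in log2 signal, Sfrp1_KO minus WT, for the 17 members above background on at least 1 array; dots are differences of group means (3 arrays each), lines their 95% intervals from limma, and black marks the called members. Abca1 lies at 1.23 and Abcc3 at -1.30, and the longest interval among the grey members belongs to Abca12 (-2.65 to -0.84).

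Abca1, which passes cholesterol and phospholipid to apolipoprotein A-I, was the member that rose. It was at 6.26, 5.75 and 5.93 on the WT arrays and at 7.03, 7.50 and 7.10 on the Sfrp1_KO arrays. All Sfrp1_KO arrays lay above all WT arrays, and all 6 were above background. The difference was 1.23 (SE 0.18, 95% CI 0.80 to 1.66, limma adjusted p = 0.0207). The call ended without WT replicate 2 or 3 or when any Sfrp1_KO array was dropped (adjusted p up to 0.0749), while the difference stayed between 1.09 and 1.37.

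The bases upstream of the Abca1 start are shown because this is the member that rose and its promoter holds a textbook response element of the liver X receptor (LXR), a sensor of oxidised cholesterol that binds direct repeats with a spacer of 4 bases. Abca12, another lipid transporter of subfamily A, is set beside it because it lay lower on the Sfrp1_KO arrays. Both are the 250 bases before the annotated start, 5′ to 3′ on the strand of the gene, from RefSeq with build GRCm38.p6. Abca1 is at chr4:53159896-53160145 on the minus strand and Abca12 at chr1:71414911-71415160 on the minus strand. Capitals mark matches to the motifs named below.
Abca1: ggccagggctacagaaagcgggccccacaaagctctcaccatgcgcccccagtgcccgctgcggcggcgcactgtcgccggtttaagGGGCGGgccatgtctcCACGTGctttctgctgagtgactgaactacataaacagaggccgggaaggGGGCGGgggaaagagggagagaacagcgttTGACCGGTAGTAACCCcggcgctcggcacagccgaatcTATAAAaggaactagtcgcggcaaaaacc
Abca12: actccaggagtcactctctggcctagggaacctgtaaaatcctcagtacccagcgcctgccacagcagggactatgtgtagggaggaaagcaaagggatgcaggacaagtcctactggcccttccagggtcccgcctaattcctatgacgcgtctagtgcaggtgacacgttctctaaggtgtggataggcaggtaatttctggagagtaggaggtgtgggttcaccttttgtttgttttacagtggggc

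The motifs, searched on both strands, were the direct repeat of AGGTCA with 4 free bases between its copies and up to 3 mismatches, the E-box CACGTG, the TATA box TATAAA and the GC box GGGCGG. In Abca1 the direct repeat matched on the opposite strand with 3 mismatches, as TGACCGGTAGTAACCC, 67 to 52 bases before the start. The E-box stood 147 to 142 bases, the TATA box 29 to 24 bases, and GC boxes 163 to 158 and 97 to 92 bases before it. No motif matched in the Abca12 window, which says only that these letters are not in it. Among 32526 promoter windows of that length 18.5% held the direct repeat, 6.04% the E-box, 12.3% the TATA box and 33.0% the GC box. Windows were matched for 38 of the 48 members, and the direct repeat was found in those of 2 of the 38. A match is a description of the sequence and does not show binding.

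The other exporters of sterols and phospholipids did not pass. Abca7, which moves phospholipid in phagocytes and elsewhere, was at 5.24 ± 0.05 in WT and 5.33 ± 0.01 in Sfrp1_KO (SD, n = 3). Abcg1, which works with Abca1 in moving cholesterol onto lipoproteins, was at 4.42, 4.29 and 4.37 in WT and 4.57, 4.70 and 4.51 in Sfrp1_KO. These Abcg1 values are all under background, although the Sfrp1_KO arrays lay above the WT arrays (0.23, SE 0.09, limma adjusted p = 0.290). Abcg4, Abcg5 and Abcg8, the last pair being the intestinal and biliary sterol exporter, lay between 4.02 and 4.41 on all arrays, under background. Of these 6 exporters 1 rose and none fell, with a median difference of 0.07 (1.83% of all genes were called higher and 1.45% lower).

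Macrophages are known for strong Abca1 expression, and the sort had gated out cells with lineage markers. The mean of 10 macrophage and leukocyte markers was 4.48 to 4.61 on WT arrays and 4.80 to 5.55 on Sfrp1_KO arrays; 7 of the 10 had every Sfrp1_KO array above every WT array (9.1% of all genes did), and none passed the limma test over all genes. Cd68 had a difference of -0.26 (SE 0.40, limma adjusted p = 0.893). The pan-leukocyte gene Ptprc stood under background on all arrays (4.18 ± 0.13 and 4.23 ± 0.11, SD, n = 3), as did Csf1r and Adgre1. Csf1r nevertheless had every Sfrp1_KO array above every WT array (0.36, SE 0.12, limma adjusted p = 0.203). C1qa, C1qb, Laptm5 and Tyrobp were above background on 2 Sfrp1_KO arrays and no WT array. Their differences were 0.85, 1.30, 0.75 and 0.95, without overlap of the arrays (limma adjusted p from 0.100 to 0.199). Lyz2 was at 4.94 ± 0.22 and 6.91 ± 1.00. Fibroblast markers were divided: of 9 measured, 2 rose, Pdgfrb (3.72, SE 0.38, limma adjusted p = 0.00696) and Thy1 (0.89, SE 0.14, limma adjusted p = 0.0237), and 1 fell, Fbln1 (limma adjusted p = 0.00394). The call of Thy1 ended when any 1 array other than Sfrp1_KO replicate 3 was dropped (limma adjusted p up to 0.100), and those of Pdgfrb and Fbln1 held without any 1 array. Of all genes 1.83% were called higher and 1.45% lower. The fibroblast mean was 5.52 to 6.77 on WT arrays and 6.42 to 7.11 on Sfrp1_KO arrays. The part of either cell type in the Abca1 difference was not tested.

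Abca12 was at 5.37, 6.15 and 6.98 in WT and at 4.43, 4.33 and 4.51 in Sfrp1_KO. The groups do not overlap, the WT arrays are far apart, and every Sfrp1_KO array is under background. The WT mean lay 1.10 log2 units above the mean background level of the Sfrp1_KO arrays, and 0.69 above it without WT replicate 3. It did not pass the limma test (measured difference -1.74, SE 0.37, adjusted p = 0.0714). By limma it passed without WT replicate 1 (-2.14, adjusted p = 0.0205), under array weights (-1.93, adjusted p = 0.0246) and with the trend and robust options (adjusted p = 0.0447). With dim genes left out it also passed (limma adjusted p = 0.0488). That filter kept it through its WT arrays only, so this pass adds no support. Abca12 did not pass with the replicate block (limma adjusted p = 0.0917), after a further quantile normalization (0.0746) or without moderation of the variances (0.275). Nor did it pass when any 1 of the other arrays was dropped (limma adjusted p from 0.0705 to 0.244). Suprabasal keratinocyte markers, the cells that make lamellar granules, had a mean over 8 genes of 6.14 to 7.02 on WT arrays and 4.77 to 4.84 on Sfrp1_KO arrays. Of the 8, Dmkn passed, downward, though not when WT replicate 2 or any 1 Sfrp1_KO array was dropped (limma adjusted p up to 0.137), and the granular layer genes Lor and Flg were under background on all arrays with differences of -0.11 and 0.01. Of all genes 1.45% were called lower. In 6 of the 8 markers every Sfrp1_KO array lay below every WT array, against 10.8% of all genes, and in none above. The part of suprabasal cells in the Abca12 values was not tested.

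Abca2, a lysosomal lipid transporter, was at 5.42, 5.39 and 5.31 in WT and at 5.74, 5.66 and 5.39 in Sfrp1_KO, where replicate 3 lies within the WT values (0.23, SE 0.11, limma adjusted p = 0.446). The remaining 12 members of subfamily A were under background on all arrays. Among them are the photoreceptor lipid importer Abca4, the lung surfactant transporter Abca3, and Abca5, Abca6, Abca8a, Abca8b and Abca9. The last 5 are direct neighbours among the protein-coding genes of chromosome 11, and their differences ran from 0.02 for Abca8b to 0.12 for Abca8a. Abca14, Abca15 and Abca16, neighbours on chromosome 7, had differences of 0.01, -0.03 and 0.01. Abca13 was the exception in separating the arrays, at 4.16, 4.33 and 4.30 against 4.42, 4.50 and 4.59, all under background. Subfamily A had 14 of 16 differences above 0, against 45.8% of all genes, and a median of 0.05.

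Abcc3, which exports glucuronide conjugates and bile salts across the basolateral membrane, was the member that fell. It was at 6.43, 5.58 and 6.10 in WT and at 4.77, 4.72 and 4.74 in Sfrp1_KO. The Sfrp1_KO arrays are close together and all under the highest background probe set. By the group means Abcc3 thus fell by at least 0.97 log2 units, or 0.77 without WT replicate 1. Against the second highest probe set 2 of the Sfrp1_KO arrays, replicates 1 and 3, were above background. The measured difference was -1.30 (SE 0.21, 95% CI -1.79 to -0.80, limma adjusted p = 0.0268). The call ended without WT replicate 3 or when any Sfrp1_KO array was dropped (adjusted p up to 0.121), with differences from -1.52 to -1.10.

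Abcc1, the multidrug resistance protein that exports glutathione conjugates and leukotriene C4, was at 6.77, 6.15 and 6.44 in WT and at 5.67, 5.78 and 5.58 in Sfrp1_KO. All 6 arrays are above background and the genotypes do not overlap. The difference was -0.78 (SE 0.16, 95% CI -1.17 to -0.38) and missed the limma threshold (adjusted p = 0.0681). By limma it passed without WT replicate 2 (-0.93, adjusted p = 0.0398), after a further quantile normalization (-0.73, adjusted p = 0.0221) and under array weights (-0.72, adjusted p = 0.0425). It did not pass with the replicate block (limma adjusted p = 0.136), with dim genes left out (0.0522) or with the trend and robust options (0.0658). Without moderation of the variances, or when any 1 of the other arrays was dropped, it did not pass either (limma adjusted p from 0.0844 to 0.243).

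Of the rest of subfamily C, Abcc5, an exporter of cyclic nucleotides, hovered at the background level (4.97 ± 0.09 and 5.01 ± 0.07, SD, n = 3). The remaining 7 were under background everywhere. Abcc4, an exporter of cyclic nucleotides and prostaglandins, was at 4.84, 4.66 and 4.65 in WT and 4.53, 4.46 and 4.60 in Sfrp1_KO, and Abcc10 was at 4.77, 4.65 and 4.49 against 4.48, 4.46 and 4.47. Both kept the genotypes apart with the Sfrp1_KO arrays lower, and neither passed (limma adjusted p = 0.434 and 0.514). Abcc9, the sulphonylurea receptor of muscle and pericytes, was at 4.27 ± 0.05 and 4.17 ± 0.08, and Abcc8, its counterpart in beta cells, at 4.16 ± 0.06 and 4.12 ± 0.05. Their channel pores Kcnj8 and Kcnj11 did not pass, with Kcnj8 at 3.70 ± 0.10 and 3.82 ± 0.08. Subfamily C had 8 of 10 differences below 0, against 54.2% of all genes, and a median of -0.07.

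**Figure D3:**
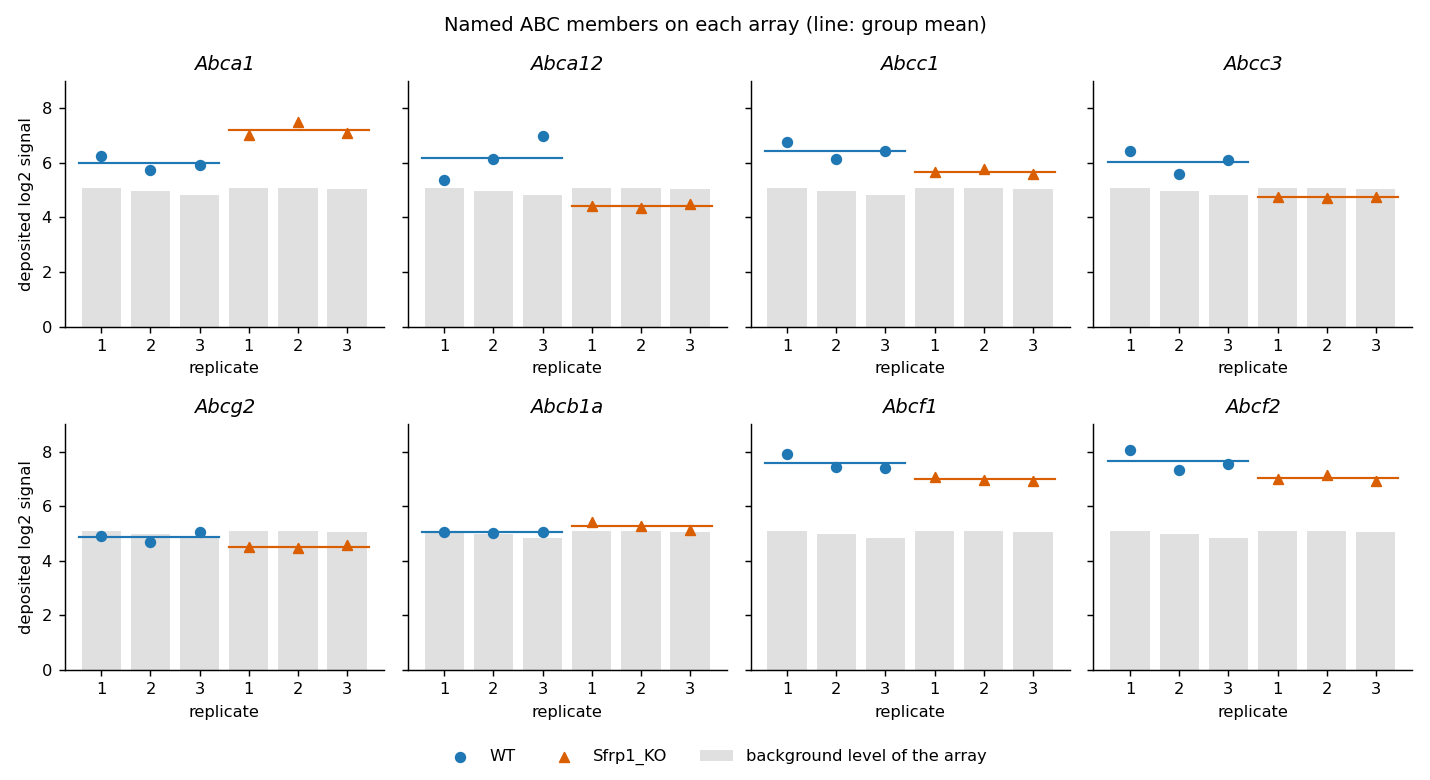
Deposited log2 signal (vertical axis) of 8 members on each array (horizontal axis, replicates 1 to 3 of WT in blue circles and of Sfrp1_KO in orange triangles); coloured lines are group means and grey bars the background level of each array. The Sfrp1_KO points of Abca12, Abcc3 and Abcg2 lie inside the grey bars, and those of Abca1 lie above every WT point.

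The drug pumps best known from stem cell work showed no call. Abcg2 was at 4.91, 4.67 and 5.06 in WT and at 4.51, 4.47 and 4.56 in Sfrp1_KO, and of these values 1, that of WT replicate 3, exceeds its array's background. The WT arrays are all above the Sfrp1_KO arrays (-0.37, SE 0.11, limma adjusted p = 0.192). Abcb1a and Abcb1b, the related pair of mouse genes for P-glycoprotein, are neighbours on chromosome 5. Whether their probes share signal was not tested. Abcb1a was at 5.06, 5.03 and 5.06 in WT and at 5.42, 5.26 and 5.13 in Sfrp1_KO, so that the genotypes do not overlap but lie close to background (0.22, SE 0.10, limma adjusted p = 0.371). Abcb1b was at 6.08, 5.24 and 5.29 in WT and at 5.64, 5.63 and 5.43 in Sfrp1_KO; WT replicate 1 lies above all the others. The Abcb1b difference was 0.03 (SE 0.23, 95% CI -0.52 to 0.59).

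Abcb5, described as a marker of tumour-initiating cells in melanoma, was under background on all arrays (4.15 ± 0.07 and 4.13 ± 0.10, SD, n = 3; difference -0.02, SE 0.09). The bile exporters Abcb4, Abcb11 and Abcc2 were under background too. Over the 11 multidrug and conjugate exporters 1 fell and none rose, the median difference was -0.03, and 5 separated the arrays with Sfrp1_KO lower and 1 with Sfrp1_KO higher. Over all genes 1.45% were called lower, and 10.8% separated the arrays downward and 9.1% upward. Of the 5, Abcc4 and Abcc10 were under background on all arrays and Abcg2 on all but 1.

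Of the mitochondrial members, Abcb8 was at 5.67, 5.18 and 5.12 in WT and at 5.30, 4.97 and 4.78 in Sfrp1_KO, with overlapping groups (-0.30, SE 0.19, limma adjusted p = 0.615). Abcb10, which serves haem synthesis in red cell precursors, was at 4.89 ± 0.13 and 4.85 ± 0.05, and Abcb6, a porphyrin carrier, at 4.50 ± 0.12 and 4.51 ± 0.06. Abcb9, a peptide carrier of the lysosome, was at 4.29 ± 0.04 and 4.18 ± 0.12 (SD, n = 3). None of the 9 members of subfamily B was called, and their differences ran from -0.30 to 0.22.

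The other peptide carriers did not pass either. Tap1, a subunit of the transporter that feeds peptides to MHC class I, was at 5.60, 5.62 and 5.98 in WT and at 6.17, 6.30 and 5.72 in Sfrp1_KO, where replicate 3 falls within the WT range (0.33, SE 0.18, limma adjusted p = 0.526). Tap2, its partner, was at 5.02 ± 0.03 against 5.14 ± 0.04 (SD, n = 3), without overlap of the arrays (0.11, SE 0.07, limma adjusted p = 0.597). Cftr, the chloride channel of the family, was under background on all arrays (4.04 ± 0.13 and 4.28 ± 0.24, SD, n = 3). Among 10 genes of peptide processing and loading for MHC class I, B2m, the class I light chain, rose (3.28, SE 0.42, limma adjusted p = 0.0136). None of the 10 fell, and the median difference was 0.13 (1.83% of all genes were called higher and 1.45% lower).

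In subfamily D, Abcd4, the lysosomal exporter of vitamin B12, was at 5.76, 5.74 and 5.78 in WT and at 5.62, 5.42 and 5.53 in Sfrp1_KO. The WT arrays lie within a narrow band above all Sfrp1_KO arrays, but the difference did not pass (-0.24, SE 0.08, limma adjusted p = 0.242). Abcd3, a fatty acid importer of peroxisomes, was under background at 4.81 ± 0.04 and 4.61 ± 0.11 (SD, n = 3), and Abcd2 at 4.19 ± 0.11 and 4.27 ± 0.21. None of 13 genes of peroxisomal fatty acid oxidation passed, and their median difference was -0.04.

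All 4 ribosome-acting members, Abce1 and Abcf1 to Abcf3, stood above background on every array, and all 4 differences were below 0. Abce1, which splits ribosomes after termination, was at 7.53, 7.70 and 7.48 in WT and at 7.01, 7.51 and 7.02 in Sfrp1_KO, where replicate 2 lies among the WT values (-0.39, SE 0.16, limma adjusted p = 0.324). Abcf1, a translation initiation factor, was at 7.90, 7.42 and 7.41 in WT and at 7.08, 6.95 and 6.91 in Sfrp1_KO, without overlap (-0.60, SE 0.15, limma adjusted p = 0.112). Abcf2 was at 8.04, 7.32 and 7.55 against 7.00, 7.14 and 6.92, again without overlap (-0.62, SE 0.19, limma adjusted p = 0.186).

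WT replicate 1 was the highest array of both Abcf1 and Abcf2, and without it the Abcf1 difference was -0.43. After a further quantile normalization both passed, Abcf1 with a difference of -0.54 (limma adjusted p = 0.0210). Abcf3 was at 5.76 ± 0.11 and 5.62 ± 0.12 (SD, n = 3). The median of these 4 differences was -0.49.

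The partners of the lipid exporters were divided. Of 14 genes of LXR signalling and cholesterol efflux 2 rose and 2 fell, where 1.83% of all genes were called higher and 1.45% lower. Mylip, an LXR target that marks the LDL receptor for degradation, was at 6.95, 6.75 and 6.79 in WT and at 9.27, 9.05 and 8.60 in Sfrp1_KO. Its groups lie far apart (2.14, SE 0.18, limma adjusted p = 0.00378), and the call held without any 1 array. Npc2, which hands cholesterol out of lysosomes, rose by 0.77 (SE 0.14, limma adjusted p = 0.0413). Apoe, an LXR target and acceptor of cellular cholesterol, fell from 7.44, 7.29 and 7.46 to 6.58, 6.43 and 6.73 (-0.82, SE 0.10, limma adjusted p = 0.0139), and Rxra, the partner receptor of LXR, fell by 0.46 (SE 0.09, limma adjusted p = 0.0496). The LXR gene Nr1h3 was at 5.38 ± 0.01 and 5.40 ± 0.08 (SD, n = 3). Without passing, Scd1 was higher on every Sfrp1_KO array (1.04, SE 0.33, limma adjusted p = 0.207) and Lpcat3 lower (-0.52, SE 0.15, limma adjusted p = 0.169). Of the 14 genes 4 separated the arrays upward and 4 downward, against 9.1% and 10.8% of all genes. The median of the 14 differences was -0.01.

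Sterol synthesis genes were lower where they passed. Of 10 genes of sterol uptake and synthesis 4 fell and none rose, with a median difference of -0.44 against -0.01 over all genes, of which 1.45% were called lower. Hmgcs1, at the entry of the mevalonate pathway, was at 7.15, 6.74 and 6.76 in WT and at 5.55, 6.01 and 5.90 in Sfrp1_KO (-1.06, SE 0.16, limma adjusted p = 0.0247). Dhcr7, the last step to cholesterol, fell by 0.74 (SE 0.11), Fdft1, squalene synthase, by 0.61 (SE 0.10) and Cyp51, lanosterol demethylase, by 0.50 (SE 0.08), each without overlap of the arrays (limma adjusted p from 0.0215 to 0.0258). Insig1, which holds back sterol synthesis, did not pass but had every Sfrp1_KO array above every WT array (0.94, SE 0.29, limma adjusted p = 0.183).

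In the barrier lipid route that Abca12 serves, 3 of 17 genes fell and none rose (1.45% of all genes were called lower and 1.83% higher), with a median of -0.37. Cers3, the ceramide synthase of the epidermal barrier, was at 5.68, 5.60 and 6.37 in WT and at 4.58, 4.68 and 4.51 in Sfrp1_KO, under background, and fell by at least 0.81, or 0.57 without WT replicate 3 (measured -1.29, SE 0.21, limma adjusted p = 0.0274). Elovl1, an elongase of very long fatty acids, fell by 0.86 (SE 0.17, limma adjusted p = 0.0497) and Degs1, the dihydroceramide desaturase, by 0.69 (SE 0.10, limma adjusted p = 0.0228). Of the 17 genes 10 separated the arrays downward and 2 upward, against 10.8% and 9.1% of all genes. The 2 upward, Abhd5, a lipase cofactor, and Smpd1, acid sphingomyelinase, did not pass (0.65 and 0.19, limma adjusted p = 0.265 and 0.357).

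The detoxification genes that work with Abcc1 and Abcc3 held 1 call. Of 14 genes of the NRF2 and glutathione system Gsta4, a glutathione transferase, fell from 10.46, 11.51 and 14.76 to 6.16, 5.52 and 6.15 (-6.30, SE 1.04, limma adjusted p = 0.0300), none rose, and the median was -0.14. Nfe2l2, the gene of NRF2, was at 5.80 ± 0.24 and 5.54 ± 0.11 (SD, n = 3). Of 8 xenobiotic receptors Ahr, the dioxin receptor, rose from 5.73, 5.62 and 5.70 to 6.73, 7.24 and 6.85 (1.26, SE 0.14, limma adjusted p = 0.00975), a call that held without any 1 array. Cpox, an enzyme of haem synthesis, fell by 1.18 (SE 0.13, limma adjusted p = 0.00892) as the called gene among 13 of haem and iron-sulphur clusters. Beside these lists, 1.83% of all genes were called higher and 1.45% lower.

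The calls of most of these partner genes ended when single arrays were left out, other than those of Mylip and Ahr. Without Sfrp1_KO replicate 1 the calls of Apoe, Npc2, Hmgcs1, Dhcr7, Fdft1, Cers3, Elovl1, Degs1, Gsta4 and B2m ended, and without Sfrp1_KO replicate 2 the same genes and Cpox. Without Sfrp1_KO replicate 3 Npc2, Hmgcs1, Fdft1, Cers3, Elovl1, Degs1 and Gsta4 lost theirs. Leaving out WT replicate 1 ended the calls of Fdft1 and Cers3, WT replicate 2 those of Npc2, Hmgcs1, Dhcr7, Elovl1, Degs1 and Gsta4, and WT replicate 3 those of Apoe, Npc2, Hmgcs1, Dhcr7, Fdft1, Elovl1 and Degs1 (limma adjusted p up to 0.190, that of Elovl1). The calls of Rxra and Cyp51 ended without any 1 of the 6 arrays (limma adjusted p up to 0.197 and 0.110).

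**Figure D4:**
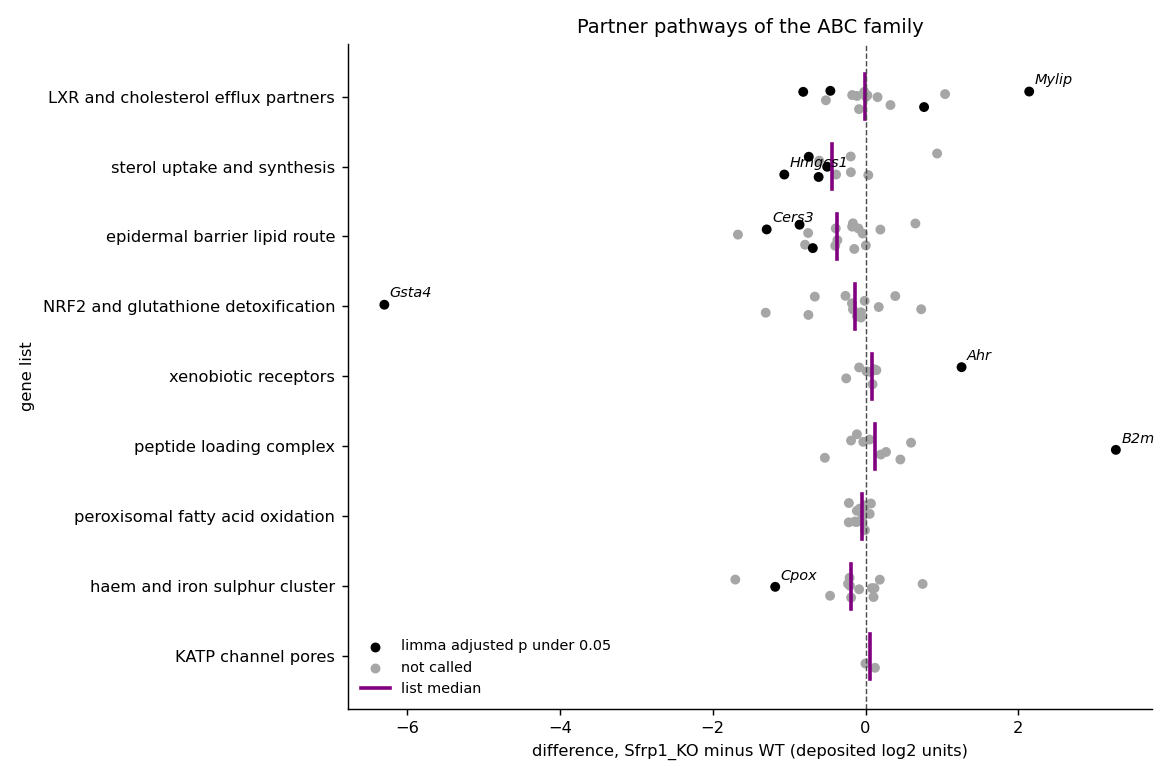
Difference in log2 signal, Sfrp1_KO minus WT (horizontal axis), for the measured genes of 9 lists that work with ABC transporters (vertical axis); points are genes, black where limma adjusted p is under 0.05, and purple bars are list medians. Black points lie on both sides of 0 for the LXR list and on the lower side for sterol synthesis (median -0.44) and barrier lipids (median -0.37).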

How the data were processed

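Signals of 6 arrays were deposited as log2 values, which the authors produced by RMA within Affymetrix Expression Console (source: the submitters' processing notes, without versions or an annotation build). Of 72688 features 30604 had 1 platform gene symbol, updated through gene identifiers in RefSeq (assembly GRCm38.p6, also used for names and neighbours); 827 symbols changed. The brightest feature over the 6 arrays stood for a gene. Genotypes, taken with the replicate numbers from the titles, were compared by lmFit and eBayes of limma 3.58.1 (R 4.3.3; two-sided, Benjamini-Hochberg over 30142 genes), with no filter, no block and no batch known; the number of arrays limits the precision. A single-gene exact permutation test of 3 against 3 arrays cannot go below p = 0.1, so none is quoted. Where all arrays of a genotype were at or under background, "at least" is the other genotype's mean minus the mean background level. This bound leaves out the spread among arrays. The bounds with 1 WT array left out or against the second highest probe set were added after seeing the data. The procedure was tested on simulated data.

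The members and lists were chosen with earlier results of these data known, and support nothing by their choice. Values were given, by rule, for called members and for the smallest p above background in subfamilies without a call. The rule also held 10 members and Tap1, Tap2 and Cftr whatever their values, and up to 3 called genes a list or else the smallest p. Rxra and Cyp51, called but beyond the first 3 of their lists, were added. Other genes were named after their values were seen. In 9 pathway lists 101 of 116 entries and in 9 marker lists 67 of 69 were measured. Marker means for pericytes (5.13 to 5.30 on WT and 4.78 to 4.92 on Sfrp1_KO arrays), endothelium (4.29 to 4.86 and 4.47 to 4.74), melanocytes (4.30 to 4.55 and 4.36 to 4.60) and adipocytes or sebocytes (4.67 to 4.95 and 4.70 to 4.83) complete the lists.

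Same-numbered WT and Sfrp1_KO arrays deviated from their group means with correlations over genes of 0.18, -0.12 and 0.17. Differently numbered arrays gave -0.33 to 0.25. With 3 arrays a genotype these correlations cannot decide whether the numbers pair the samples.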

Additional observations from a re-analysis of the deposited data

How the results depend on the processing

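Each member has 1 feature, so averaging the features of a gene changed no count of called members, and a minimum difference of 1 log2 unit kept Abca1 and Abcc3 while it left 539 of the 989 genes called over all. With the replicate block 535 genes were called, 0 members higher and 0 lower (limma adjusted p = 0.0854 for Abca1 and 0.0550 for Abcc3); the numbers share no source in the labels. Without moderation of the variances 35 genes were called, again 0 members higher and 0 lower. At an unadjusted limma p under 0.05 there were 11 members with the block, 12 without moderation and 7 to 10 with 1 array left out. Members called lower were 2 with dim genes left out, 2 with the trend and robust options, 3 with array weights and 4 after a further quantile normalization, each including Abcc3, and Abca1 was called higher under all 4. The 2 with dim genes left out, Abca12 and Abcc3, were kept by that filter through their WT arrays only. Leaving out 1 array gave 291 to 753 calls over all genes, 0 to 1 member higher and 0 to 2 lower. In the same runs the Abcb1b difference ran from -0.11 to 0.31 and that of Abcb5 from -0.071 to 0.026, both turning sign around 0. Against the second highest background probe set the bounds were 1.45 log2 units for Abca12 and 1.17 for Cers3. Against the median background probe set 48 members were above background in WT and 48 in Sfrp1_KO. With 3 arrays a genotype, and 31 members at or under background, small changes of these genes were not detectable.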
